A study of Mus musculus with 16 samples.

Results

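The Wnt/beta-catenin barrier signalling genes described here are 10 genes, Wnt5b, Fzd4, Lrp5, Tspan12, Adgra2, Reck, Lef1, Axin2, Apcdd1 and Tnfrsf19, taken by symbol from a table of raw counts for 37003 genes. All 10 were in the table in 1 row each, and all 10 were among the 31085 genes that passed the filter on low counts. RNA was sequenced from mouse brain endothelial cells (bECs) sorted as living, CD45-negative, CD31-positive cells, in 4 groups of 4 libraries, CTRL and YT-iKO mice each after sham surgery or after MCAo. MCAo is a 30-minute closure of the middle cerebral artery followed by reperfusion, and cells were taken 72 hours after MCAo or sham surgery from the ischemic territory or from sham tissue. Mice of all 4 groups were adult, carried floxed Yap and floxed Taz (the gene Wwtr1) alleles and received tamoxifen. YT-iKO mice also carried Pdgfb-iCreER-eGFP, which drives a tamoxifen-inducible Cre recombinase from the promoter of the endothelial gene Pdgfb, and CTRL littermates lacked it. The Cre transgene and the deletion of Yap and Taz therefore cannot be told apart. Each library was a pool of mice of a mixed-sex cohort, the ages and the sexes within a pool are not given, and p-values measure the spread between pools.

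In the canonical pathway, a Wnt ligand joins a Frizzled receptor to Lrp5 or Lrp6, which stops the degradation of beta-catenin, and beta-catenin then acts in the nucleus with Lef1 and related TCF factors. In the brain, this signal in endothelial cells is known for building and keeping the blood-brain barrier. Reck and Adgra2 are known as a co-receptor pair that makes Wnt7a and Wnt7b act on brain endothelium, and Tspan12 as the helper of Fzd4 for the ligand norrin. Axin2 and Apcdd1 are widely used as readouts of the pathway and restrain it, and Lef1 is both a partner of beta-catenin and itself induced by it.

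Promoter sequences are shown for Wnt5b and Reck, the members with the lowest p-values for genotype in edgeR, and for Axin2, the common readout; they were chosen after their values were seen. They are the 250 bases before a RefSeq transcription start on GRCm38.p6, the first listed of 3 for Wnt5b, read 5′ to 3′ along the gene's strand, for Wnt5b at chr6:119544348-119544597 (minus strand), Reck at chr4:43875280-43875529 (plus strand) and Axin2 at chr11:108920099-108920348 (plus strand). Capitals mark GGAATG, the letters of a TEAD motif (TEAD factors are the DNA-binding partners of YAP and TAZ), or CTTTGA, letters of a TCF/LEF motif, on either strand; these letters do not overlap each other.
Wnt5b: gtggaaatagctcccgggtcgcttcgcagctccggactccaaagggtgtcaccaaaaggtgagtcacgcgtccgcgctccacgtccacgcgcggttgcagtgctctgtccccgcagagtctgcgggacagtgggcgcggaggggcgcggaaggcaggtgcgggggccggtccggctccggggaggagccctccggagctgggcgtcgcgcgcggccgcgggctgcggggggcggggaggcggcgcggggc
Reck: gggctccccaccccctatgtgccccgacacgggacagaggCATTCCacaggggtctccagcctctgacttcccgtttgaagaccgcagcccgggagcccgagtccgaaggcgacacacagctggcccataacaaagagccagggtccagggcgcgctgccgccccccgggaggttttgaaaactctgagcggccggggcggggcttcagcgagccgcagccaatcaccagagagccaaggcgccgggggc
Axin2: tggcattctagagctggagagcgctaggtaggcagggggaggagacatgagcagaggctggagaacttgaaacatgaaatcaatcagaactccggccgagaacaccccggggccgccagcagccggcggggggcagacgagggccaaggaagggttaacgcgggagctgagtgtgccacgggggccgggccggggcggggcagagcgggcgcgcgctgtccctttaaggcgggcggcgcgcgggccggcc
The Reck window held the TEAD letters once, as CATTCC on the strand printed, starting 210 bases before the start, and the other 2 windows printed held neither motif. Another Wnt5b window, before the third of its starts (chr6:119449387-119449636, minus strand), held CTTTGA 71 bases before the start. Of 13 windows of 7 members, 1 held the TEAD letters (Reck) and 3 held the TCF/LEF letters, 1 each of Wnt5b, Lef1 and Tnfrsf19. Among all 32851 windows of the same length, 12.6% held the TEAD letters and 13.8% the TCF/LEF letters. A match in these letters describes the sequence, and no binding was measured here.

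Library sums ranged from 11418262 to 23074547 counts, and TMM factors from 0.743 to 1.40. Yap1 and Wwtr1, the deleted genes, matched the labels: Yap1 averaged 112 ± 0.511 CPM (counts relative to the TMM-scaled library sum; SD, n = 4) in CTRL sham and 49.3 ± 9.70 in YT-iKO sham, and Wwtr1 averaged 265 ± 9.66 and 72.1 ± 20.9. Summed over 10 endothelial markers, libraries held 8781 to 17951 CPM. Sums in CPM carry the TMM factors, and the part of this scaling in their range was not tested. The 7 pericyte markers summed to 461 to 1417 CPM, the 7 microglia and macrophage markers to 4.99 to 23.1 CPM and the 5 neuron markers to 20.3 to 55.9 CPM, with no marker of these 3 lists at 0 throughout a group. Libraries also differed in reads on 1258 olfactory, vomeronasal and taste receptor genes, which endothelial cells are not known to use. This density, lowest at 0.0221 CPM per kilobase of exon (kb) and highest at 0.547, was taken as a measure of evenly spread background reads. The highest densities were in YT-iKO MCAo replicates 2 (0.547) and 3 (0.423) and in YT-iKO sham replicate 3 (0.541). Calls that turn on these libraries are given with and without them.

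In resting CTRL bECs, the co-receptor Adgra2 and the nuclear factor Lef1 were the most abundant members per length, and the ligand Wnt5b was the least. On the scale of level per kb of exon, CTRL sham libraries averaged 71.3 ± 4.00 CPM per kb (SD, n = 4) for Adgra2 and 70.9 ± 6.19 for Lef1, and these libraries overlapped. Reck (52.3), Apcdd1 (51.5), Axin2 (49.9), Tnfrsf19 (49.6) and Fzd4 (45.0) followed in mean CPM per kb, and each overlapped with its neighbour in this order. Lrp5 at 30.1, Tspan12 at 14.3 and Wnt5b at 2.16 CPM per kb each lay below every library of the gene before it. The step from Lef1 to Reck likewise had no overlap.

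**Figure D1:**
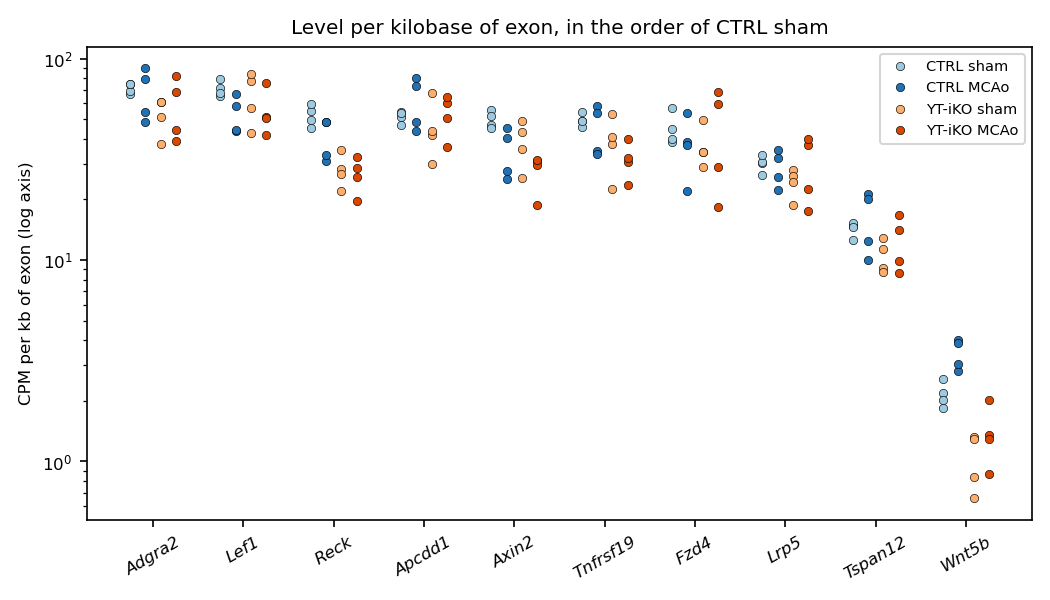
Level of each gene in CPM per kb of exon on a log axis, with 1 point per library and colours for the 4 groups, ordered by the mean in CTRL sham. Wnt5b lies lowest, between 0.656 and 4.01 CPM per kb over all libraries, and Tspan12 next, between 8.61 and 21.3.

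The spread of TMM-scaled CPM between libraries of a group was smallest in CTRL sham. There, the coefficient of variation of the members had a median of 9.10%, from 5.62% for Adgra2 to 18.1% for Fzd4. The median was 25.4% in YT-iKO sham, and after MCAo it was 28.2% in CTRL and 28.5% in YT-iKO, where Fzd4 reached 54.5%. The libraries at the ends were mostly the same ones: YT-iKO MCAo replicate 2 was the lowest of its group for 9 of the 10 members and YT-iKO sham replicate 3 for 8. CTRL MCAo replicate 1, YT-iKO MCAo replicate 4 and YT-iKO sham replicate 1 were the highest of their groups for 9, 8 and 7 members. CPM are divided by the TMM factor of the library. The factors ran from 0.915 to 0.961 in CTRL sham, 0.743 to 1.23 in CTRL MCAo, 0.925 to 1.36 in YT-iKO sham and 0.746 to 1.40 in YT-iKO MCAo. The libraries named at the low end had the highest factor of their group, and those at the high end the lowest. Over the 16 libraries, log2(CPM + 1) of the members had Pearson r values with the log2 receptor-gene density of -0.87 for Lrp5, -0.84 for Adgra2 and -0.73 for Fzd4, and of 0.19 for Wnt5b. These points share libraries and scaling, and the parts of background reads and of the TMM factors in the spread were not tested.

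**Figure D2:**
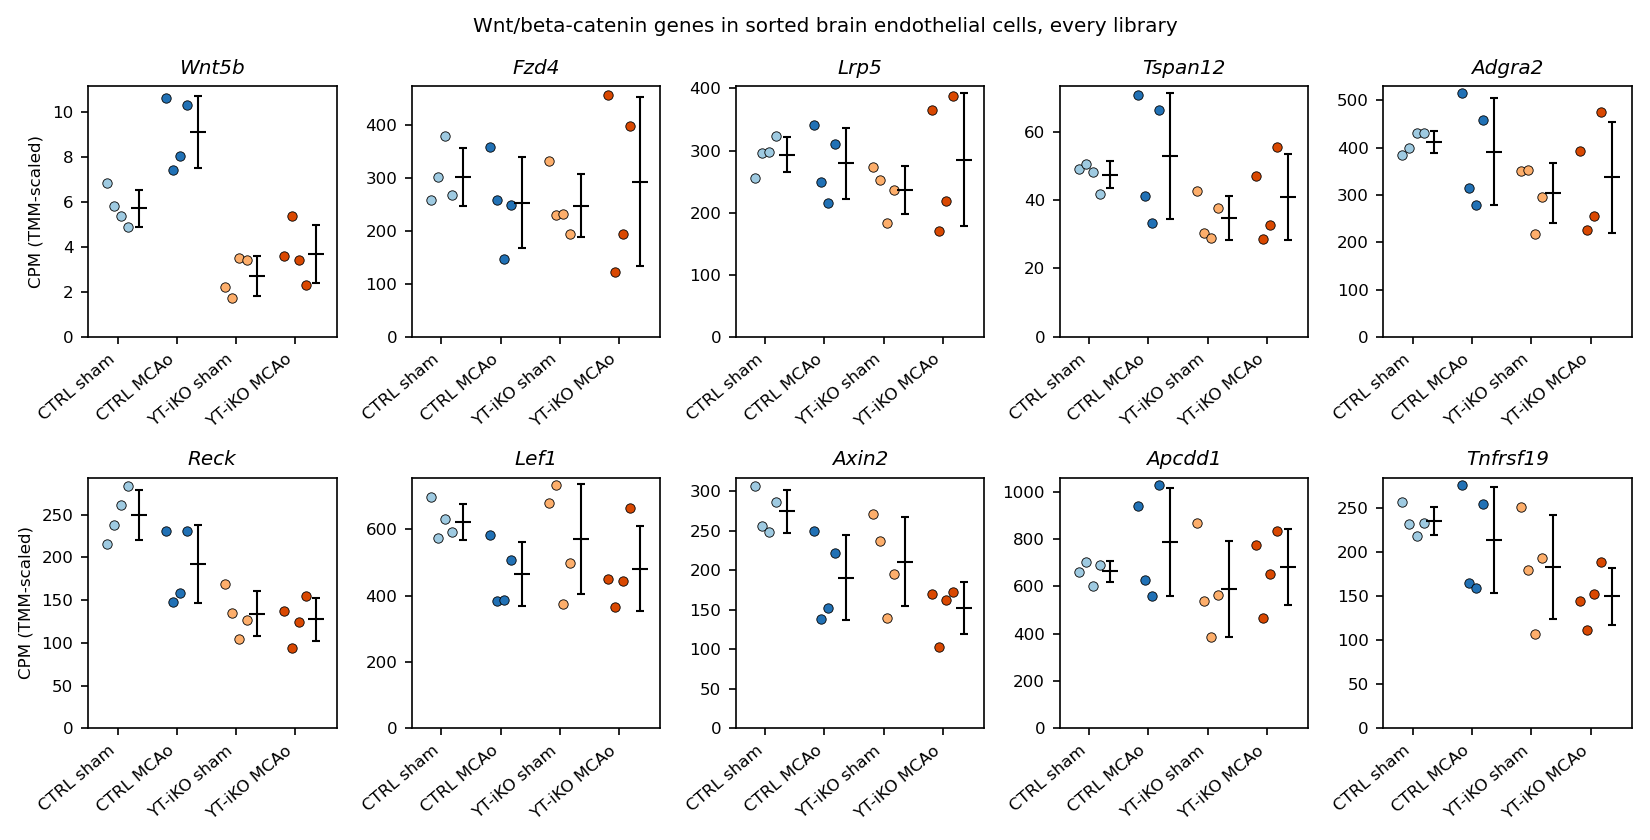
CPM of each of the 10 genes in every library, on linear axes from 0. Circles are libraries in replicate order and the bar beside them is the mean with its SD (n = 4). Wnt5b of YT-iKO lies below all CTRL libraries of the same surgery, and Reck of YT-iKO sham, at 105 to 169 CPM, lies below CTRL sham, at 216 to 284.

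Loss of YAP/TAZ in sham-operated mice was the first comparison. With edgeR's quasi-likelihood test and Benjamini-Hochberg adjustment over all genes at an adjusted p under 0.1, none of the 10 members was called (0 of 10), against 0.0965% of all genes tested. In edgeR at an unadjusted p under 0.05 there were 2, Wnt5b and Reck, both lower in YT-iKO, against 2.16% of all genes. DESeq2, the tool the study names, called the same 2 genes at an adjusted p under 0.1, against 0.42% of the genes it tested, and limma-voom called these 2 as well, against 0.46%. The groups did not overlap for 3 members, Wnt5b, Reck and Adgra2, each lower in YT-iKO, while 2.22% of all genes were lower without overlap. That share was 3.85% in either direction. In bulk libraries, fewer cells of a kind and less RNA per cell cannot be told apart. The 6 astrocyte markers summed to 97.6 to 112 CPM in CTRL sham and to 61.7 to 81.2 CPM in YT-iKO sham, without overlap. Of these, Gja1 (53.9 to 69.0 and 32.5 to 51.6 CPM) and Slc1a3 (8.55 to 12.6 and 5.96 to 7.51) were lower without overlap. Gfap, Aqp4, Aldoc and Slc1a2 overlapped. The endothelial markers summed to 14990 to 16294 and 8781 to 16062 CPM, and the pericyte markers to 714 to 887 and 520 to 813. The part of these markers in the member values was not tested.

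Wnt5b, a ligand best known for signalling without beta-catenin (chr6:119432531-119544347, minus strand), had low counts. CTRL sham libraries held 6.83, 5.81, 5.36 and 4.87 CPM, and YT-iKO sham libraries held 2.22, 1.74, 3.50 and 3.43 CPM. Every YT-iKO library was below every CTRL library, and the YT-iKO mean was 47.6% of the CTRL mean. The edgeR log2 fold change was -1.08 ± 0.29 (SE), with an unadjusted p of 0.00135 and an adjusted p of 0.733. In DESeq2 it was -1.09 ± 0.29, with an adjusted p of 0.0652. Of 11 other fits, not counting those that leave out single libraries, 3 called Wnt5b, with log2 fold changes of -1.22 to -0.86 and adjusted p of 0.00847 to 0.810 over edgeR, DESeq2 and limma. The exact permutation test over 70 assignments gave p = 0.0286, the smallest that 4 against 4 libraries allow, before any correction for the 40 such tests made.

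Reck, the membrane-anchored partner of Adgra2 (chr4:43875530-43944806, plus strand), had at least 1502 counts in every library. CTRL sham libraries held 216, 238, 262 and 284 CPM and YT-iKO sham libraries held 169, 135, 105 and 127 CPM. These ranges did not overlap, and the YT-iKO mean was 53.6% of the CTRL mean. edgeR gave a log2 fold change of -0.90 ± 0.23, with an unadjusted p of 0.000645 and an adjusted p of 0.440, and the exact permutation p was 0.0286. In DESeq2 Reck was lower in YT-iKO, by a log2 fold change of -0.90 ± 0.21 with an adjusted p of 0.00677. Of the 11 other fits 8 called it, with log2 fold changes of -0.91 to -0.76 and adjusted p of 0.000794 to 0.297 over edgeR, DESeq2 and limma.

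Adgra2, the adhesion receptor also called Gpr124 (chr8:27085583-27123436, plus strand), held 385, 399, 430 and 432 CPM in CTRL sham and 350, 352, 217 and 296 CPM in YT-iKO sham. The groups did not overlap, and the gap between 352 and 385 CPM was smaller than the SD of YT-iKO sham, 63.2 CPM. In edgeR a log2 fold change of -0.44 ± 0.26 had an unadjusted p of 0.113, and none of the 11 other fits called it. Tspan12 (chr6:21771395-21852515, minus strand) averaged 47.4 ± 3.90 CPM in CTRL sham and 34.8 ± 6.45 in YT-iKO sham, with 3 of 4 YT-iKO libraries below all CTRL libraries. Its edgeR log2 fold change was -0.44 ± 0.25, unadjusted p 0.0873. The receptor Fzd4 (chr7:89404355-89413134, plus strand) and its co-receptor Lrp5 (chr19:3584828-3686564, minus strand) had log2 fold changes of -0.29 ± 0.33 and -0.31 ± 0.25.

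The nuclear factor Lef1 (chr3:131110471-131224356, plus strand) overlapped widely, at 574 to 697 CPM in CTRL sham and 375 to 734 CPM in YT-iKO sham. Among the targets and feedback genes, the log2 fold change was -0.38 ± 0.25 for Axin2 (chr11:108920349-108950783, plus strand), a scaffold of the complex that degrades beta-catenin. It was -0.17 ± 0.28 for Apcdd1, a membrane inhibitor of Wnt signals on chromosome 18, and -0.36 ± 0.26 for Tnfrsf19, a receptor of the TNF family known as Troy (chr14:60963875-61046490, minus strand). For these 4 genes the groups overlapped, and the adjusted p in edgeR was 0.990 for each. Without the 3 libraries richest in receptor-gene reads, the log2 fold change was -0.24 ± 0.13 for Axin2, -0.03 ± 0.17 for Apcdd1 and -0.18 ± 0.14 for Tnfrsf19.

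All 10 members had a log2 fold change below 0 after sham, but Lef1 was above 0 without YT-iKO sham replicate 3 (0.04) and without the 3 libraries richest in receptor-gene reads (0.01). Over all genes tested 39.9% were below 0, with a median of 0.11, while among 9132 abundant genes, of 10 CPM or more on average, 79.2% were below 0, with a median of -0.13. The median of the members was -0.37. On this scale the abundant genes mostly shared the direction of the members. After MCAo 7 of 10 members were below 0, against 44.5% of all genes and 48.1% of the abundant ones. Over the 11 other fits 6 to 9 members were below 0 in that comparison. Scaling on the abundant genes alone moved the median of all genes by 0.19 after sham and left all 10 members below 0, where 46.6% of the abundant genes were. Reck had a log2 fold change of -0.76 ± 0.11 there, with an adjusted p of 0.00209 in edgeR, and Wnt5b one of -0.86 ± 0.38, with an adjusted p of 0.810. The values nearer 0 shrank by over 1.5 times, to -0.13 ± 0.22 for Fzd4, -0.17 ± 0.09 for Lrp5, -0.06 ± 0.14 for Apcdd1 and -0.0052 ± 0.11 for Lef1. Tspan12 also shrank by over 1.5 times, to -0.29 ± 0.11.

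**Figure D3:**
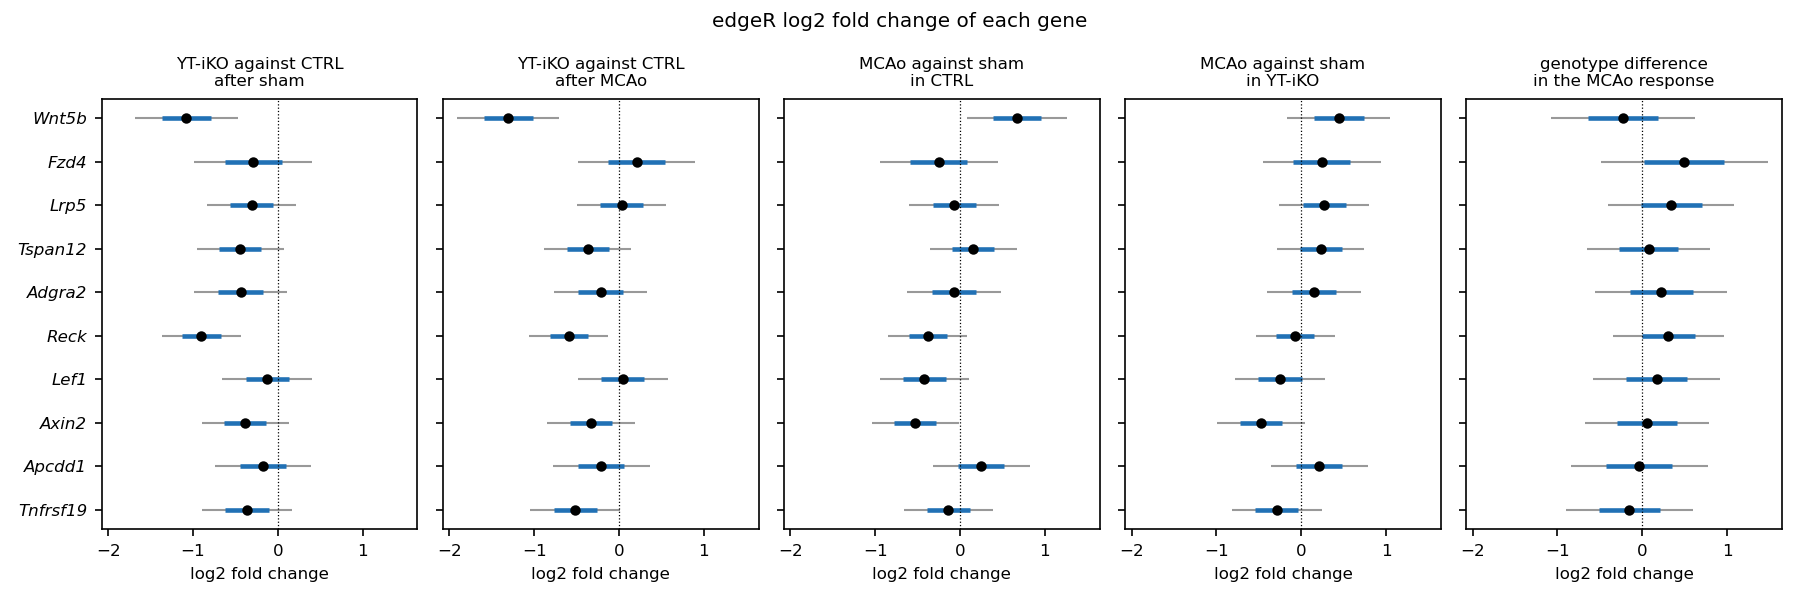
edgeR log2 fold change of each gene in the 5 comparisons, 1 panel each. Points are estimates, thick bars 1 SE and thin lines the 95% confidence interval. The intervals of Wnt5b and Reck lie below 0 in both comparisons of genotype, at -1.08 and -1.31 for Wnt5b and -0.90 and -0.59 for Reck.

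Loss of YAP/TAZ was then compared after MCAo. edgeR called 0 of 10 members, against 0.0708% of all genes. At an unadjusted p under 0.05 in edgeR it gave 2, again Wnt5b and Reck and again lower in YT-iKO, against 1.49% of all genes. DESeq2 called 1 (Wnt5b; 0.461% of its genes) and limma-voom 1 (Wnt5b; 0.827%). Wnt5b was the 1 member whose groups did not overlap, against 0.415% of all genes lower without overlap and 0.981% in either direction.

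For Wnt5b, the CTRL MCAo libraries held 10.6, 7.44, 8.07 and 10.3 CPM and YT-iKO MCAo libraries held 3.61, 5.39, 3.43 and 2.31 CPM. The YT-iKO mean was 40.4% of the CTRL mean, and every YT-iKO library lay below every CTRL library. The edgeR log2 fold change was -1.31 ± 0.29, with an unadjusted p of 0.000175 and an adjusted p of 0.201, and DESeq2 gave -1.34 ± 0.29 with an adjusted p of 0.0017. Of the 11 other fits 5 called it, with adjusted p of 0.000717 to 0.659 over edgeR, DESeq2 and limma. Leaving out replicate 2 of YT-iKO MCAo or replicate 3 of YT-iKO sham, both rich in receptor-gene reads, brought it past the threshold in edgeR, with the lowest adjusted p at 0.0540. Without all 3 receptor-rich libraries the log2 fold change was -1.75 ± 0.32 and the adjusted p 0.0134, with 2 YT-iKO MCAo libraries left.

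Evenly spread background reads would make up a larger share of Wnt5b than of any other member. Its counts were 69 to 107 in CTRL sham, 108 to 164 in CTRL MCAo, 31 to 54 in YT-iKO sham and 37 to 86 in YT-iKO MCAo. An even background over its 2.65 kb of exon would give 1.26 to 16.6 counts, at most 30.4% of the counts seen, in YT-iKO sham replicate 3. For the other members this share was at most 4.60%, for Tspan12. The counts left after subtracting it were filtered and scaled anew, with 24994 genes tested. CPM therefore moved with the subtraction and with the rescaling of libraries, and their parts were not separated. With the background subtracted and the libraries rescaled, the Wnt5b ranges were 4.35 to 6.27 CPM in CTRL sham and 1.28 to 3.16 in YT-iKO sham. After MCAo they were 7.80 to 9.53 in CTRL and 1.81 to 5.47 in YT-iKO. Both pairs still did not overlap. After sham 4 members were without overlap once the background was subtracted and the libraries rescaled, Tspan12 besides the other 3, against 4.9% of all genes.

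**Figure D4:**
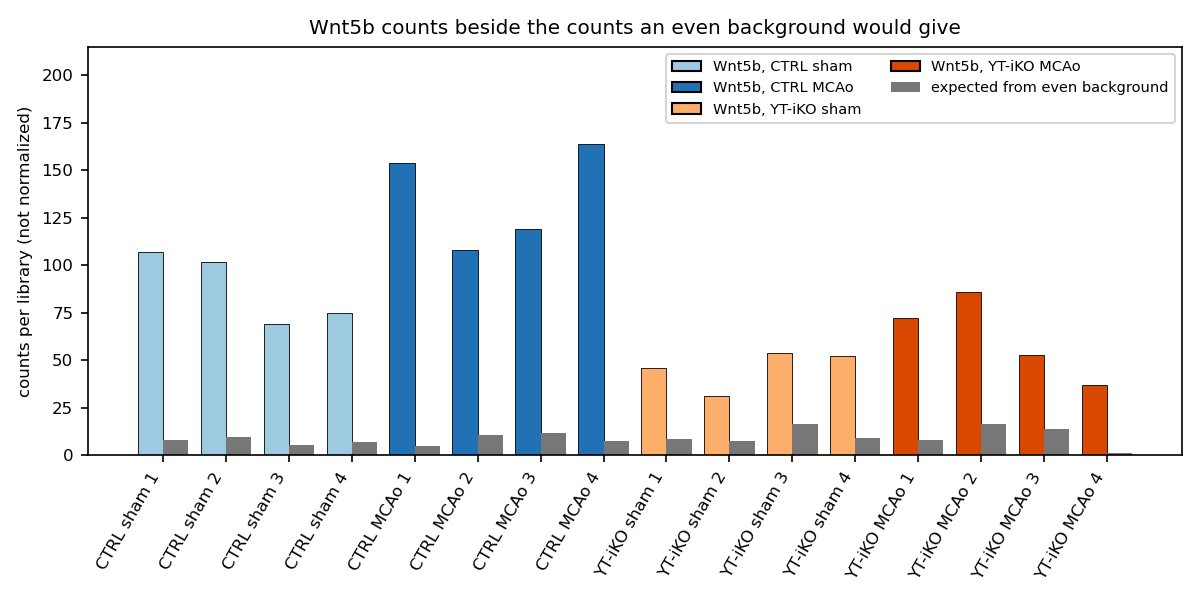
Raw Wnt5b counts in each library (coloured bars) beside the counts that an even background at that library's receptor-gene density would give (grey bars), on a linear axis from 0. Expected counts reach 16.6, in replicate 2 of YT-iKO MCAo, where 86 counts were seen.

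In TMM-scaled CPM, the Reck groups overlapped after MCAo. CTRL MCAo libraries held 231, 148, 159 and 231 CPM and YT-iKO MCAo libraries held 138, 94.1, 124 and 154 CPM. The highest YT-iKO library, replicate 4 (TMM factor 0.746), lay above the lowest CTRL library, replicate 2 (TMM factor 1.14). CPM are divided by these factors, and their part in the overlap was not tested. edgeR gave a log2 fold change of -0.59 ± 0.22 with an unadjusted p of 0.0154, and DESeq2 gave -0.62 ± 0.21 with an adjusted p of 0.369. With the background subtracted and the libraries rescaled, the groups did not overlap, at 169 to 223 CPM against 117 to 149. edgeR then gave an adjusted p of 0.0339. Of the 11 other fits 3 called Reck after MCAo: this one, the edgeR fit with the receptor-gene covariate (adjusted p 0.0105) and the scaling on abundant genes. The even background was at most 1.99% of the Reck counts, and the rescaling moved the CPM further than that.

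Of the other members after MCAo, Tnfrsf19 had the largest log2 fold change, -0.51 ± 0.26, with an unadjusted p of 0.0570 in edgeR. Its CTRL libraries held 276, 165, 159 and 254 CPM and its YT-iKO libraries 145, 112, 153 and 189 CPM. YT-iKO replicate 4 alone lay within the CTRL range. The log2 fold changes were -0.37 ± 0.25 for Tspan12, -0.33 ± 0.25 for Axin2, -0.21 ± 0.26 for Adgra2, -0.21 ± 0.28 for Apcdd1, 0.05 ± 0.25 for Lef1, 0.03 ± 0.25 for Lrp5 and 0.21 ± 0.33 for Fzd4. The direction of the last 3 depended on the fit. limma-voom gave -0.32 ± 0.21 for Fzd4 and -0.23 ± 0.15 for Lrp5 and had 9 of 10 members below 0, beside 75.4% of the abundant genes. It also gave -0.30 ± 0.16 for Tnfrsf19, -0.06 ± 0.17 for Axin2, -0.35 ± 0.15 for Adgra2 and -0.10 ± 0.17 for Apcdd1. DESeq2 gave -0.0026 ± 0.24 for Lrp5, and Lef1 was below 0 with no filter on low counts (-0.02) and with the receptor-gene covariate (-0.03). Both Fzd4 groups were wide, at 148 to 360 CPM in CTRL MCAo and 123 to 458 in YT-iKO MCAo. Subtracting the background and rescaling the libraries left 3 members without overlap, Wnt5b, Reck and Tnfrsf19, where 2.79% of all genes did not overlap.

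The response to MCAo in CTRL bECs was compared next, with the same CTRL libraries that serve in the comparisons of genotype. edgeR called 0 of 10 members, against 0.216% of all genes. In edgeR, 2 had an unadjusted p under 0.05, against 3.5% of all genes: Wnt5b, with higher levels after MCAo, and Axin2, with lower ones. DESeq2 called 0, against 1.11% of its genes. limma-voom called 6, Wnt5b, Adgra2, Reck, Lef1, Axin2 and Tnfrsf19, but it also called 24.2% of all genes. The groups did not overlap for 1 member, Wnt5b, which was higher; 4.14% of all genes did not overlap and 2.24% were higher without overlap. Below 0 were 7 of 10 members, 42.9% of all genes and 67.7% of the abundant genes, and in limma-voom 9 of 10 members and 87.6% of the abundant genes. The 6 fibroblast markers summed to 17.6 to 19.8 CPM in CTRL sham and 27.4 to 33.1 CPM in CTRL MCAo, without overlap. The neuron markers summed to 31.7 to 38.2 and 20.3 to 28.5 CPM. Of these, only Stmn2 was lower without overlap, at 22.7 to 28.9 CPM in CTRL sham and 7.30 to 21.1 in CTRL MCAo. Rbfox3, Syt1, Tubb3 and Snap25 overlapped between these groups. The part of these markers in the member values was not tested.

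The Wnt5b mean after MCAo was 159% of that in CTRL sham, from 5.72 ± 0.834 to 9.12 ± 1.60 CPM (SD, n = 4 each). All 4 MCAo libraries lay above all 4 sham libraries, and the exact permutation p was 0.0286. The edgeR log2 fold change was 0.67 ± 0.28, with an unadjusted p of 0.0273. Axin2 libraries held 307, 256, 249 and 286 CPM after sham and 250, 138, 153 and 222 CPM after MCAo. Its mean after MCAo was 69.4% of that after sham, and CTRL MCAo replicate 1 alone overlapped with sham. The edgeR log2 fold change was -0.53 ± 0.25 with an unadjusted p of 0.0459, and DESeq2 gave an adjusted p of 0.697. Of the 11 other fits 2 called Axin2, limma-voom (adjusted p 0.00148) and the fit without the 3 receptor-rich libraries (adjusted p 0.0628).

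Lef1 followed a like order, with 623 ± 54.4 CPM after sham and 466 ± 97.2 after MCAo, a log2 fold change of -0.42 ± 0.26 and an unadjusted p of 0.115 in edgeR. The lower Axin2 and Lef1 CPM were in CTRL MCAo replicates 2 and 3. These had receptor-gene densities of 0.309 and 0.372 CPM per kb against 0.0914 and 0.153 in replicates 1 and 4. Their TMM factors, by which CPM are divided, were 1.14 and 1.23 against 0.743 and 0.852. The parts of density and scaling in these values were not tested. With the background subtracted and the libraries rescaled, CTRL MCAo did not overlap with CTRL sham for Axin2 (158 to 214 against 238 to 304 CPM). Nor did it for Lef1 (441 to 497 against 574 to 690 CPM). These 2 and Wnt5b made 3 members, against 7.99% of all genes, and edgeR then gave Axin2 an adjusted p of 0.175. Reck had a log2 fold change of -0.38 ± 0.22 and Apcdd1 one of 0.25 ± 0.28. For Fzd4, Lrp5, Tspan12, Adgra2 and Tnfrsf19 the log2 fold change lay between -0.25 and 0.16 in edgeR, with SEs of 0.25 to 0.33. In limma-voom Tspan12 (-0.17 ± 0.15) and Apcdd1 (-0.0074 ± 0.15) lay on the other side of 0. It placed Axin2 (-0.83 ± 0.15), Lef1 (-0.62 ± 0.14), Reck (-0.61 ± 0.14) and Tnfrsf19 (-0.42 ± 0.15) further below 0. The same held for Fzd4 (-0.40 ± 0.19), Adgra2 (-0.33 ± 0.14) and Lrp5 (-0.21 ± 0.14), while Wnt5b was at 0.48 ± 0.18.

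In YT-iKO bECs, MCAo against sham gave 0 of 10 calls in edgeR, against 0.318% of all genes, and 0 members at an unadjusted p under 0.05, against 3.01%. DESeq2 called 0 (1.25% of its genes) and limma-voom 3 (18.1%), Lef1, Axin2 and Tnfrsf19. No member was free of overlap, against 1.28% of all genes and, with the background subtracted and the libraries rescaled, 3.22%. Below 0 were 4 of 10 members, 52.4% of all genes and 39.1% of the abundant genes. In limma-voom 8 of 10 members and 90.5% of the abundant genes were below 0, and with the receptor-gene covariate 6 members and 69.1%, so these directions depended on the fit. Axin2 libraries held 271, 237, 140 and 195 CPM after sham and 170, 103, 163 and 172 CPM after MCAo, so that YT-iKO sham replicate 3 lay within the MCAo range. The mean after MCAo was 72.1% of that after sham, with a log2 fold change of -0.47 ± 0.25 and an unadjusted p of 0.0708 in edgeR. Of the 11 other fits 4 called Axin2: limma-voom, the receptor-gene covariate (-0.55 ± 0.16, adjusted p 0.0908), the scaling on abundant genes (-0.48 ± 0.13, adjusted p 0.0956) and the fit without the 3 receptor-rich libraries (-0.51 ± 0.16, adjusted p 0.0976). The last fit, with 3 sham and 2 MCAo libraries of YT-iKO left, also called Lrp5, as higher after MCAo, by 0.50 ± 0.13 with an adjusted p of 0.0484. It called 4.34% of all genes, and in it 23.0% of the abundant genes were below 0. Wnt5b had a log2 fold change of 0.44 ± 0.29, Lef1 -0.25 ± 0.25, Tnfrsf19 -0.29 ± 0.26 and Reck -0.07 ± 0.22. Fzd4, Lrp5, Tspan12, Adgra2 and Apcdd1 lay between 0.15 and 0.27 in edgeR, with SEs of 0.25 to 0.33. limma-voom gave -0.40 ± 0.23 for Fzd4, -0.31 ± 0.16 for Adgra2, -0.21 ± 0.16 for Lrp5, -0.15 ± 0.18 for Tspan12 and 0.0024 ± 0.18 for Apcdd1.

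The difference between the genotypes in the response to MCAo was tested directly as an interaction. edgeR called 0 of 10 members and 0% of all genes, and no member had an unadjusted p under 0.05, against 0.373% of all genes. DESeq2 and limma-voom called 0 members as well. Below 0 were 3 members, against 51.9% of all genes and 15.7% of the abundant genes, and 2 to 5 members over 10 other fits. For Wnt5b the difference in log2 fold change was -0.23 ± 0.41, with a 95% confidence interval from -1.08 to 0.62. For Axin2 it was 0.05 ± 0.35, from -0.67 to 0.78. In limma-voom Wnt5b lay on the other side of 0, at 0.15 ± 0.33, and Axin2 was at 0.24 ± 0.24. Fzd4 had the largest value in edgeR, 0.49 ± 0.47, from -0.49 to 1.48, and in limma-voom it was at -0.0014 ± 0.30. With intervals this wide, a like response in both genotypes was not shown.

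Other genes of the pathway were listed by role, 116 in all, and all passed the filter. edgeR called 0 of them in each of the 5 comparisons. In edgeR, 8 (2 higher, 6 lower) had an unadjusted p under 0.05 for genotype after sham, 5 (all lower) for genotype after MCAo, and for MCAo against sham 5 in CTRL and 9 in YT-iKO, with 1 for the interaction. These were 6.90%, 4.31%, 4.31%, 7.76% and 0.862% of the list, beside 2.16%, 1.49%, 3.5%, 3.01% and 0.373% of all genes. DESeq2 called 2, 2, 2, 0 and 0 in the same order, 1.72% of the list in each of the first 3 comparisons, beside 0.42%, 0.461% and 1.11% of its genes. limma-voom called 3, 2, 34, 21 and 0, and its 29.3% and 18.1% of the list for MCAo in CTRL and in YT-iKO stood beside 24.2% and 18.1% of all genes. The 15 barrier genes listed as dependent on endothelial beta-catenin had 5 lower genes at an unadjusted p under 0.05 after sham, where 2.16% of all genes passed that level in either direction. Their median log2 fold change was -0.46, that of all genes 0.11 and that of the 9132 abundant genes -0.13, of which 79.2% were below 0. The other 6 lists had at most 1 such gene each in that comparison. All lists were chosen with earlier results of these data known, so these counts and medians are descriptions and not a test.

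Among the barrier genes, Itih5, which codes for a hyaluronan-binding matrix protein, and Slc7a1, the cationic amino acid transporter of the barrier, were lower in YT-iKO in DESeq2 after both surgeries. The DESeq2 log2 fold changes of Itih5 were -0.85 ± 0.21 after sham, adjusted p 0.0147, and -0.77 ± 0.21 after MCAo, adjusted p 0.0512. Those of Slc7a1 were -0.98 ± 0.27, adjusted p 0.0652, and -1.13 ± 0.27, adjusted p 0.0091. In edgeR, the Slc7a1 values of -0.98 ± 0.29 and -1.10 ± 0.29 had unadjusted p of 0.0025 and 0.000909.

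Of 14 genes, the 2 most abundant of each list, 2 lay lower in YT-iKO sham than in CTRL sham without overlap, Ctnnb1 and Lrp6, where 2.22% of all genes did. Beta-catenin itself, Ctnnb1, averaged 845 ± 9.50 CPM in CTRL sham and 591 ± 141 in YT-iKO sham, and 746 ± 208 and 573 ± 177 after MCAo. After sham its libraries held 831 to 851 CPM in CTRL and 431 to 762 CPM in YT-iKO, without overlap. Of the receptors, Fzd6 averaged 359 ± 28.6 CPM in CTRL sham and 291 ± 72.7 in YT-iKO sham, and Lrp6, the partner of Lrp5 in function, 313 ± 16.5 and 239 ± 45.9. The Lrp6 groups were barely apart, with 291 CPM as the highest YT-iKO and 294 as the lowest CTRL library, and the Fzd6 groups overlapped. The glucose transporter Slc2a1 averaged 2654 ± 254 and 1927 ± 416 CPM, and the drug efflux pump Abcb1a 2265 ± 100 and 1925 ± 381, both with overlap. None of these 5 had an adjusted p under 0.1 in edgeR. Wnt5a, the close relative of Wnt5b, averaged 59.5 ± 6.22 CPM in CTRL sham and 54.6 ± 7.42 in YT-iKO sham, and 79.8 ± 21.5 and 101 ± 56.2 after MCAo.

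Nkd1, a feedback inhibitor that acts on Dishevelled, had lower means after MCAo, as Axin2 did. It averaged 278 ± 46.3 CPM after sham and 205 ± 51.0 after MCAo in CTRL, and 288 ± 86.5 and 200 ± 48.2 in YT-iKO. Znrf3, the other most abundant gene of the feedback and target list, averaged 67.0 ± 3.71, 64.1 ± 17.8, 57.5 ± 15.2 and 59.0 ± 19.2 CPM in the same order. The 10 genes of that list had a median log2 fold change of 0.21 for MCAo in CTRL, beside 0.07 for all genes. In YT-iKO it was 0.11, beside -0.02. Notum, a secreted enzyme that inactivates Wnt ligands, averaged 53.7 ± 7.18, 39.2 ± 8.10, 52.5 ± 18.3 and 32.1 ± 4.00 CPM in the same order. Its log2 fold change for MCAo in YT-iKO was -0.71 ± 0.23, with an unadjusted p of 0.00571 and an adjusted p of 0.595 in edgeR. Myc, a growth-promoting transcription factor, averaged 1.04 CPM in CTRL sham and 3.82 in CTRL MCAo and was higher after MCAo in DESeq2, by 1.91 ± 0.45 with an adjusted p of 0.00436. An even background would make up 26.8% to 69.7% of the 10 to 21 Myc counts in CTRL sham. For the Wnt-binding inhibitor Frzb, DESeq2 gave a difference of 1.95 ± 0.48 in this comparison, adjusted p 0.00978, from 0.626 to 2.39 CPM. Its 6 to 12 counts in CTRL sham were at the level of the even background (6.71 to 11.7 expected counts), which would be 22.2% to 35.3% of its 26 to 41 counts in CTRL MCAo. In YT-iKO it averaged 1.59 CPM after sham and 1.24 after MCAo, where the even background would be 37.3% to 58.7% and 25.6% to 68.6% of its counts. The edgeR interaction for Frzb was -2.26 ± 0.66, with an unadjusted p of 0.00265. It was the 1 gene of the 116 listed under 0.05 there, and edgeR called 0 of all 31085 genes for the interaction.

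Over the 16 libraries the highest Pearson r between members in log2(CPM + 1) were those of Lrp5 with Adgra2 (0.93), Tspan12 with Adgra2 (0.89) and Axin2 with Tnfrsf19 (0.89). With the group means taken off these were 0.95, 0.88 and 0.92. Wnt5b had an r of 0.03 with Axin2 and -0.30 with Lef1. Outside the members, among the 9132 abundant genes, those most like Wnt5b were Tlcd3b (r = 0.89) and Hrct1 (0.82), and those most like Reck were Prom1 (0.97) and Itih5 (0.95). Axin2 was most like Rab11fip1 (0.97) and Esyt2 (0.95), Lef1 most like Atp8a1 (0.98) and Pnpla6 (0.97), and Apcdd1 most like Foxf2 (0.95) and Nfkb2 (0.95). Values for Adgra2 were 0.99 with Pcnx and 0.98 with Lamb2, and for Fzd4 0.96 with Irf2bp2 and with Klf9. Lrp5 had r values of 0.98 with Mast2 and with Tln1, and Tnfrsf19 values of 0.97 with Nampt and with Stard4. Tspan12 was most like a gene without a symbol in the table (0.97) and Cpne3 (0.97). All these points share libraries, depth and scaling factors, and the values are descriptions without a test.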

How the data were processed

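Counts per gene for 16 libraries were taken as deposited: per the labels and the study's methods, the authors amplified RNA with a SMART-Seq kit, mapped reads with STAR 2.7.8a to GRCm38 and deposited raw counts without normalization. The counting program and its use of strand are not given in the sources used here; antisense genes share 1208 exon bases with Lef1, 209 with Axin2 and 98 with Tspan12, and Brf2 shares 73 with Adgra2. The gene identifiers of 36841 of 37003 genes were found in GENCODE M21 (GRCm38), which gave positions and exon lengths. In R 4.3.3, edgeR 4.0.16 (quasi-likelihood test, TMM, filterByExpr with a minimum count of 10 and minimum total of 15, 4 groups in 1 model) tested 31085 genes with Benjamini-Hochberg adjustment over all of them, with a threshold of 0.1 on the adjusted p. SE is the size of the log2 fold change divided by the square root of F. CPM used TMM factors. Single members were also tested by exact two-sided permutation on log2(CPM + 1). The even background was receptor-gene CPM per kb times exon length.

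Alternatives were DESeq2 1.42.0, limma-voom (limma 3.58.1) with sample quality weights, RLE factors, TMM factors from abundant genes (10 CPM or more on average), no filter, CPM above 1 in at least 4 libraries, an adjusted p under 0.05, only the groups compared, a replicate block, receptor-gene CPM as a covariate and each library left out. Added after seeing the data were leaving out the 3 receptor-rich libraries and subtracting the background. After the subtraction the filter and the scaling were computed anew, so that setting changed both at once. The method was tested on simulated data. The named genes were the 10 members, Yap1, Wwtr1, pathway genes past the threshold in DESeq2 and the 2 most like each member. Of the 2 most abundant in each role, some but not all were named. Others named were chosen after their values were seen. Members and lists were chosen with earlier results of these data known. Library sums were 11418262 to 23074547 counts, and Wnt5b had 31 to 164 counts per library.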

Additional observations from a re-analysis of the deposited data

Results flagged for a closer look

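Of 40 sets of 4 libraries (10 members in 4 groups), 1 had a library standing apart, by Dixon's test of the gap to the nearest library at the 95% level. This was Axin2 in YT-iKO MCAo replicate 2, at 103 CPM where the other 3 libraries held 163 to 172 CPM, a gap of 0.861 of the range. Chance sets apart about 5% of such groups. The same library was the lowest of its group for 9 of 10 members. Among all libraries it had the highest receptor-gene density, 0.547 CPM per kb, and the highest TMM factor, 1.40, by which its CPM are divided. The parts of density and scaling in the value were not tested. With the even background subtracted and the libraries rescaled, this library held 128 CPM, beside 138 to 195 CPM in the others. The even background was 2.08% of its Axin2 count, so the rise came with the rescaling.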

How the results depend on the processing

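Among 1390 values of a member under an alternative, 1354 kept their side of the threshold, 36 gained a call, 0 lost one and 0 reversed, while 82 changed sign without a call. The main edgeR fit called 0 members in each comparison, so no call could be lost, and only a gained call could reverse. The share of all genes called follows each setting in parentheses. For genotype after sham, where edgeR called 0 members (0.0965%), DESeq2 (0.42%), the receptor-gene covariate (0.463%) and limma-voom (0.46%) called 2, Wnt5b and Reck. The scaling on abundant genes (0.37%), the filter of CPM above 1 (0.161%), only the groups compared (0.506%), the 3 receptor-rich libraries left out (0.283%) and the background subtracted (0.412%) each called 1, Reck. For genotype after MCAo (0 members, 0.0708%), the covariate (0.856%) and the background subtracted (0.536%) called 2, Wnt5b and Reck. DESeq2 (0.461%), limma-voom (0.827%) and the receptor-rich libraries left out (1.47%) called 1, Wnt5b, the scaling on abundant genes (0.582%) called 1, Reck, and leaving out single libraries gave 0 to 1. For MCAo in CTRL (0 members, 0.216%), limma-voom called 6 (24.2%), only the groups compared 1, Wnt5b (2.52%), and the receptor-rich libraries left out 1, Axin2 (1.86%). For MCAo in YT-iKO (0 members, 0.318%), limma-voom called 3 (18.1%), the receptor-rich libraries left out 2, Lrp5 and Axin2 (4.34%), and the scaling on abundant genes (1.72%) and the covariate (1.74%) 1 each, Axin2. For the interaction 0 members were called in all of these. The cause was not tested. Scaling on abundant genes moved the median log2 fold change of all genes by 0.19 after sham and 0.14 for MCAo in CTRL. Over all genes, edgeR called 30, 22, 67 and 99 for the 2 comparisons of genotype and the 2 of MCAo. DESeq2 called 65, 78, 203 and 239, and limma-voom 143, 257, 7538 and 5626. With single libraries left out, the edgeR counts were 12 to 43, 11 to 47, 26 to 162 and 37 to 203 in the same order.

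With the replicate block, 0 members were called in each comparison, as without it. Libraries of the same number tended to deviate together: the median correlation of deviations was 0.26 over 24 same-number pairs, with 17 above 0.1, against -0.13 over 72 pairs of different numbers, with 27 above 0.1, and 9 of 16 libraries correlated best with their own number. This is a hint from the data. The labels name no shared batch or animal, and 7 of the 24 pairs were not above 0.1, so the numbers were not treated as pairs.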
